A study of Quercus suber with 11 samples.

Results

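Cork oak loci annotated as homologs of 6 Arabidopsis proteins of the glycosylphosphatidylinositol (GPI)-anchored lipid transfer protein family (LTPG) were followed through the cork growing season. The proteins were LTPG1 (AT1G27950), LTPG2 (AT3G43720), LTPG5 (AT3G22600), LTPG6 (AT1G55260), LTPG15 (AT2G48130) and the product of AT5G13900. A locus was included when its first Arabidopsis identifier, without the transcript suffix, was in this group, which gave 11 of the 32024 loci of the table. LTPG5 accounted for 7 of the 11 loci, and LTPG2, LTPG6, LTPG15 and AT5G13900 for 1 each. LTPG1 was not the first identifier of any locus, so that 5 of the 6 identifiers were found.

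The RNA came from innercork, the living phellem formed in the current season together with phellogenic tissue, taken from virgin cork planks of *Quercus suber* trees growing wild in a forest. Polyadenylated RNA was sequenced from 4 trees in April, when cork growth starts, 3 trees in June, when it is fastest, and 4 trees in July, at an advanced stage. Each tree was sampled once, so the months differ in trees as well as in season, and no tree received a treatment. A plank breaks along the phellogen, so the share of phellogen, phellem and adjoining cells may differ between libraries, and in such bulk samples fewer cells of a type cannot be told apart from less RNA per cell.

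Lipid transfer proteins are small secreted proteins in which conserved cysteines hold a hydrophobic cavity that binds acyl chains. LTPGs carry in addition a GPI anchor that tethers them to the outer face of the plasma membrane, where they are thought to help move lipid monomers and waxes from the ABCG transporters of the membrane into the apoplast. In Arabidopsis, LTPG1 and LTPG2 contribute to the wax of the stem cuticle, LTPG15 to the export of suberin lipids in the seed coat, and LTPG5 and LTPG6 have been studied in seed coat and pollen. Suberin is the lipid polyester that makes the phellem wall waterproof.

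Levels are given as regularized log (rlog) values, a log2 scale on which reads were divided by a size factor per library and low values were shrunk toward the mean of the locus. They are not divided by transcript length, so an order of loci is an order of read values and not of transcripts, and the read depth behind a value is unknown. The linear value is 2 to the power of rlog. The log2FC is the difference between month means, with its standard error (SE) from limma over the 11 trees. Loci had to average an rlog of log2 of 10 to be tested, which left 22426, and a differentially expressed gene (DEG) was one with an absolute log2FC above 1 whose p, adjusted over these loci by Benjamini-Hochberg, did not exceed 0.01. The spread between trees includes biological and technical differences. April replicate 2 and July replicate 4 stood apart from the other libraries, with tree weights of 0.26 and 0.40 against 0.75 to 1.96 in the other 9 trees. In July replicate 4, ribosomal RNA loci also took 14.7% of the summed linear values, against 1.98 to 9.26% elsewhere. The phellem markers were abundant in every month, with summed linear values of 514498 to 1035110 in April, 995642 to 1207630 in June and 655255 to 827867 in July. They were not level over the months. All 5 phellem loci tested had a higher mean in June than in April, 1 without overlap, against 26.9% of all loci tested. All 5 had a lower mean in July than in June, 5 without overlap, against 10.7% of all loci tested. None was a DEG in either comparison. The part of phellem content in the LTPG values was not tested. Only 1 of the 3 green tissue identifiers had a locus, LOC111990557, which is listed as a long non-coding RNA. Its linear value was near 0.48 in every tree, which cannot tell whether green tissue was present.

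Of the 11 LTPG loci, 8 exceeded the minimum and 3, all LTPG5 copies, did not. Members above the minimum spanned mean rlog values from 16.80 in LOC111987449 to 5.79 in LOC112008421. In decreasing order they were the LTPG5 copies LOC111987449, LOC111987452 and LOC111987450, LTPG2 LOC112029845, LTPG5 copy LOC111987474, LTPG6 LOC111987395, LTPG15 LOC111994753 and the AT5G13900 homolog LOC112008421. LOC111987449 lay above LOC111987452, and LOC111987452 above LOC111987450, in 11 of 11 trees. LOC111987450 and LTPG2 were separated by a mean of 0.45, with LOC111987450 higher in 9 of 11 trees, and LOC111987474 exceeded LTPG6 by 0.41 on average but in only 6 of 11 trees, so that neither pair was separated beyond the spread between trees. LTPG15 had no fixed place in the order, since it was below LTPG6 in 7 trees and above it in 4.

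**Figure D1:**
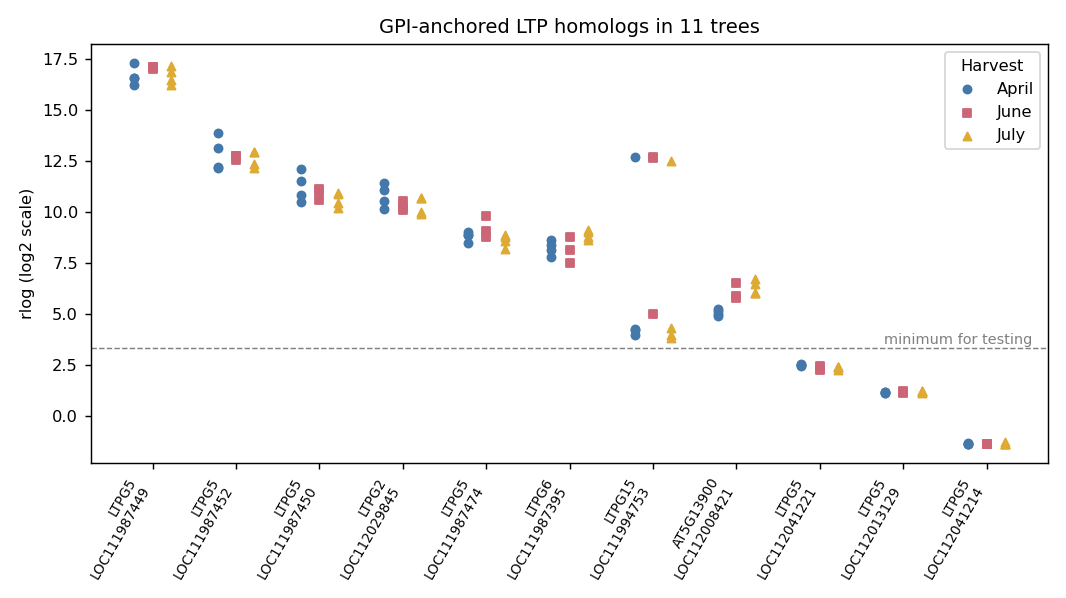
Rlog (log2 scale) of the 11 LTPG loci in each of the 4 April, 3 June and 4 July trees, each point a tree, with a dashed line at the minimum level for testing. LOC111987449 lies above all other members in every tree, and LTPG15 LOC111994753 is split between 4 trees at 12.49 to 12.71 and 7 trees at 3.82 to 5.01.

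The locus with the most reads, LTPG5 LOC111987449, was high in all 3 months. Its rlog was 16.24, 17.32, 16.60 and 16.61 in the April trees, 17.14, 17.12 and 17.01 in June, and 16.23, 16.89, 16.47 and 17.19 in July. The June trees were close together (17.09 ± 0.07, SD, n = 3) and lay inside the ranges of April (16.69 ± 0.45, n = 4) and July (16.70 ± 0.42, n = 4), so that no pair of months was separated. In linear values it held 89.4% of the sum of all 11 LTPG loci, from 86.5 to 92.6% by tree, and between 0.21 and 0.40% of the summed values of a whole library. June exceeded April by a log2FC of 0.40 (SE 0.29, adjusted p = 0.390, and a log2FC of -0.02 after quantile normalization), July was at the level of April (log2FC 0.00, SE 0.27, adjusted p = 0.997, with a 95% interval from -0.59 to 0.60), and July was below June by a log2FC of -0.40 (SE 0.29, adjusted p = 0.761).

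The other LTPG5 copies above the minimum carried gene numbers next to that of LOC111987449. In the numbering of the CorkOak1.0 loci, LOC111987449, LOC111987450, LOC111987452 and LOC111987474 had the consecutive numbers 31685 to 31688. The number before belonged to LOC111987476, a homolog of AT3G22590, and the number after to LOC111987470, a homolog of AT3G22620 (LTPG20). The neighbouring Arabidopsis identifiers AT3G22590, AT3G22600 and AT3G22620 thus recurred among neighbouring cork oak loci. In the RefSeq gene table of a different assembly, Cork oak 2.0, LOC111987470, LOC111987452, LOC111987450, LOC111987449 and LOC111987476 also stood in succession, with LOC112019986 after the first of them, while LOC111987474 was not matched by name. Succession here is the order in which the loci are listed, and positions on a scaffold were not compared. How reads were shared between copies of similar sequence was not tested, so the split between these copies is uncertain.

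LOC111987452 had rlog values of 12.23, 13.89, 12.17 and 13.16 in April, 12.55, 12.76 and 12.74 in June, and 12.19, 12.96, 12.35 and 12.96 in July. April held both the highest and the lowest tree, and the June/April, July/April and July/June log2FC were -0.18, -0.25 and -0.07, with SEs from 0.36 to 0.38. LOC111987450 had rlog values of 10.85, 12.11, 10.50 and 11.54 in April, 10.59, 11.05 and 11.15 in June, and 10.18, 10.88, 10.44 and 10.96 in July. Its month means decreased in that order, but the ranges overlapped and no difference was called (June/April, July/April and July/June log2FC of -0.32, -0.63 and -0.31, with adjusted p = 0.586, 0.224 and 0.871). LOC111987474, the lowest of the 4, had rlog values of 8.47, 8.85, 9.02 and 8.89 in April, 9.83, 9.08 and 8.80 in June, and 8.80, 8.88, 8.56 and 8.19 in July. June replicate 1 was its highest tree and July replicate 4 its lowest, and July/June gave a log2FC of -0.63 (SE 0.26, unadjusted p = 0.0344, adjusted p = 0.513).

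Compared within each tree, LOC111987449 exceeded LOC111987452 by a log2 difference of 3.83 ± 0.48 in April, 4.41 ± 0.17 in June and 4.08 ± 0.13 in July (mean ± SD, n = 4, 3 and 4). Its excess over LOC111987450 was 5.44 ± 0.46 in April, 6.16 ± 0.36 in June and 6.08 ± 0.10 in July, and over LOC111987474 it was 7.89 ± 0.40, 7.86 ± 0.48 and 8.09 ± 0.66. These within-tree differences are given as a description, and the months overlapped in each of them except that every June tree exceeded every July tree for LOC111987452. As shares of the linear values of the 7 LTPG5 copies, LOC111987449 held 92.3% (88.8 to 94.5% by tree), LOC111987452 5.64% and LOC111987450 1.64%.

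**Figure D2:**
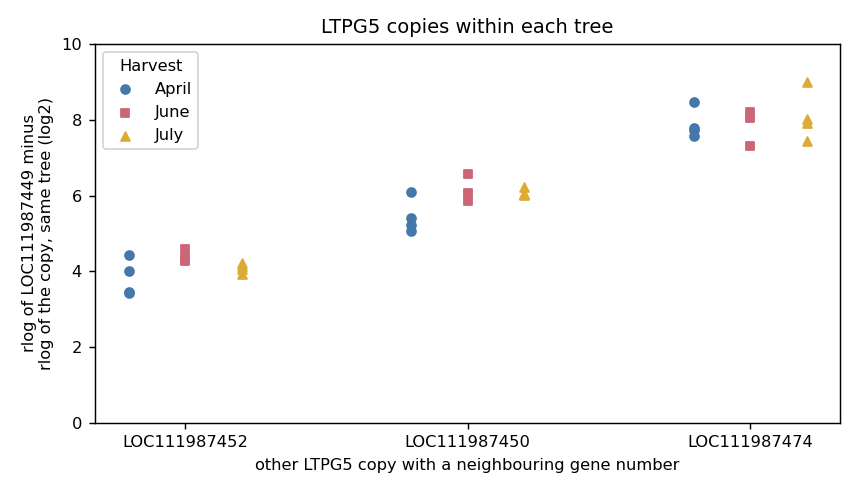
Difference in rlog within each tree between LOC111987449 and the 3 LTPG5 copies with neighbouring gene numbers (vertical axis, log2), each point a tree and the colours the harvest months. The excess over LOC111987452 was 3.43 to 4.596, over LOC111987450 5.07 to 6.56 and over LOC111987474 7.32 to 8.996.

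The remaining LTPG5 copies were close to the floor of the table. LOC112041221 lay between 2.26 and 2.52 in the 11 trees, LOC112013129 between 1.1002 and 1.22, and LOC112041214 between -1.39 and -1.29. No tree brought any of the 3 above log2 of 10, and they were not tested. LOC112041214 and LOC112041221 carry the consecutive gene numbers 27542 and 27543, apart from the other LTPG5 group.

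LTPG2, which in Arabidopsis acts with LTPG1 in cuticular wax, was represented by LOC112029845. Its rlog was 11.08, 10.56, 10.15 and 11.42 in April, 10.55, 10.23 and 10.12 in June, and 10.68, 9.98, 9.88 and 10.68 in July. The highest values were those of April replicates 4 and 1, while the other April trees lay within the range of June and July. Log2FC was -0.51 in June/April (SE 0.31, adjusted p = 0.311), -0.50 in July/April (SE 0.29, adjusted p = 0.279) and 0.01 in July/June (SE 0.31, adjusted p = 0.995). The 95% interval of July/June, from -0.68 to 0.70, leaves room for differences in either direction.

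LTPG6 had its higher values in July. LOC111987395 had rlog values of 8.61, 8.40, 7.78 and 8.14 in April, 7.48, 8.76 and 8.14 in June, and 9.04, 9.14, 8.76 and 8.63 in July. Every July tree exceeded every April tree, the closest pair being July replicate 4 (8.63) and April replicate 1 (8.61), whereas June replicate 2 fell within the July range. The July/April log2FC of 0.66 (SE 0.27, 95% interval 0.05 to 1.27) had an unadjusted p of 0.0366 and an adjusted p of 0.139, so LTPG6 was not called. July/June gave a log2FC of 0.77 (SE 0.30, adjusted p = 0.478) and June/April -0.11 (SE 0.30, adjusted p = 0.842).

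The homolog of AT5G13900, LOC112008421, was the only LTPG member called in any comparison and also the lowest of those tested. Its rlog was 5.16, 5.22, 4.92 and 5.01 in April, 5.86, 6.52 and 5.79 in June, and 6.05, 6.72, 6.04 and 6.46 in July. All June and July trees lay above all April trees, and June and July overlapped. On the linear scale it averaged 33.9 ± 3.22 over the April, 68.3 ± 20.2 over the June and 81.2 ± 19.0 over the July trees (SD, n = 4, 3 and 4), so that it made up at most 0.0788% of the summed LTPG values in any tree. July exceeded April 2.36-fold (log2FC 1.24, SE 0.23, adjusted p = 0.00818), which met the DEG criteria. June/April reached a log2FC of 0.98 (SE 0.24, adjusted p = 0.0333) and missed both criteria, and July/June was 0.26 (SE 0.24, adjusted p = 0.83). The July/April call lay close to the threshold. The log2FC remained between 1.103 and 1.33, but the call was lost when any of 9 trees was left out (April replicates 1, 3 and 4, June replicates 1 and 3, and each of the 4 July trees, adjusted p from 0.0128 to 0.0297) and was kept without April replicate 2 (adjusted p = 0.00717) or June replicate 2 (adjusted p = 0.00814). Without both April replicate 2 and July replicate 4, the log2FC was 1.24 with an adjusted p of 0.0120.

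Markers of other tissues moved over the same months. Xylem marker loci had summed linear values of 8088 to 12690 in April, 13578 to 16931 in June and 12374 to 61784 in July, and phellogen and cambium markers had sums of 19497 to 27315 in April, 9892 to 11114 in June and 9133 to 17706 in July. The phloem marker sums were 4909 to 13313 in April, 19050 to 30285 in June and 5809 to 28234 in July. The sum in June, but not in July, thus lay apart from April. The single phloem loci were divided, with 3 of the 5 tested higher and 2 lower in June than in April. The 3 higher ones were SEOR1 homologs, with log2FC from 0.66 (SE 0.36) to 2.57 (SE 1.36). In 2 of them, LOC112027469 and LOC111994151, every June tree lay above every April tree. The 2 lower ones were the SUC2 homolog LOC111984700 (log2FC -1.38, SE 0.94) and the SEOR1 homolog LOC111986242 (log2FC -0.25, SE 0.41). Their April and June trees overlapped, and LOC111986242 is listed as a long non-coding RNA. Of the 13 xylem loci tested 12 had a higher mean in July than in April, and the median log2FC was 2.43. The 2 months did not overlap for 6 of the 13, against 17.5% of all loci tested. None was called, but 9 of the 13 had an adjusted p of at most 0.05 in July/April by limma. Over all 22426 loci tested, 2701 did. None of the 5 phloem loci tested was called (1, 1 and 0 had an unadjusted p under 0.05 in June/April, July/April and July/June by limma). All 6 phellogen and cambium loci tested had a lower mean in June than in April, 5 without overlap, against 26.9% of all loci tested. Of these 6, 4 had an adjusted p of at most 0.05 by limma, as had 2199 of all 22426 loci, and none was called. In July/April 5 of the 6 were lower, and 3 had an adjusted p of at most 0.05 by limma. Only the SHOOT MERISTEMLESS homolog LOC111993990 was called there (log2FC -1.42, adjusted p = 0.00968). The part of these tissues in the LTPG6 and AT5G13900 values was not tested.

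**Figure D3:**
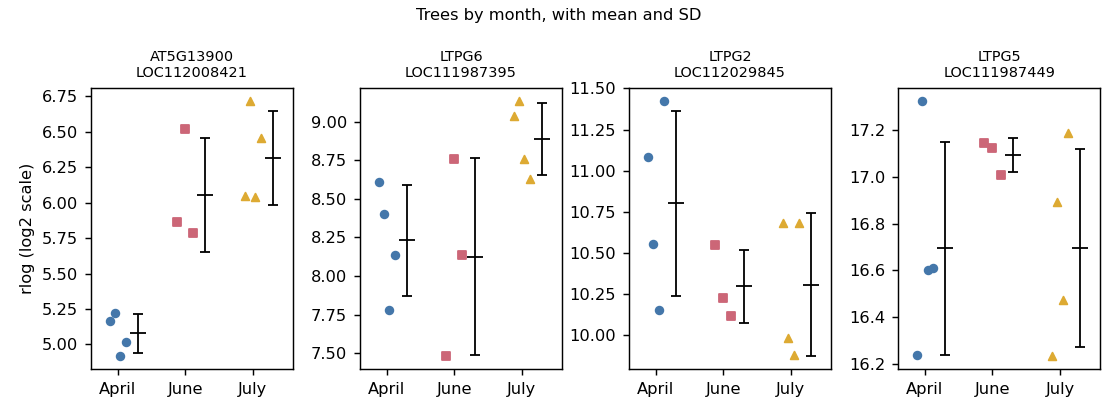
Rlog (log2 scale, a separate axis for each panel) of the AT5G13900 homolog LOC112008421, LTPG6 LOC111987395, LTPG2 LOC112029845 and LTPG5 LOC111987449, with each tree as a point and the mean and SD of each month beside it. The June and July trees of LOC112008421 (5.79 to 6.72) lie above all April trees (4.92 to 5.22), and the July trees of LTPG6 above its April trees, while the months overlap in the other pair.

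LTPG15 was the member on in some trees only. LOC111994753 had rlog values of 3.95, 4.25, 12.69 and 4.19 in April, 12.64, 5.01 and 12.71 in June, and 3.82, 3.97, 12.49 and 4.33 in July. April replicate 3, June replicates 1 and 3 and July replicate 3 lay between 12.49 and 12.71, the other 7 trees lay between 3.82 and 5.01, and each month had trees of both kinds. The 7.48 log2 units that separate the nearest trees of the 2 ranges correspond to 178-fold on the linear scale. In the 4 trees LTPG15 made up 3.96 to 5.80% of the summed LTPG values, and in the other 7 at most 0.0210%. The month means followed the number of such trees (1 of 4 in April, 2 of 3 in June and 1 of 4 in July), and none of the comparisons was called (log2FC 3.85, SE 2.89, for June/April, -0.12, SE 2.67, for July/April and -3.97, SE 2.89, for July/June). A range of at least 4 between the highest and lowest tree was found in 978 of the 22426 loci tested (4.36%) and in 1 of the 8 LTPG loci. Counting LTPG15 itself, 8 loci had a range at least as wide as that of LTPG15.

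The locus with the next gene number had the same pattern over the trees. LOC111994752 (number 38261, against 38260 for LTPG15), with the identifiers AT1G05450 and AT2G48140, had rlog values of 3.96, 4.57, 10.40 and 3.85 in April, 11.31, 4.71 and 10.87 in June, and 4.61, 4.84, 10.56 and 5.76 in July. It was thus high in the same 4 trees as LTPG15. On the other side, LOC111994757 (number 38259) remained between 1.25 and 1.43 in all trees.

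A second pair of loci with related identifiers was present in every tree. LOC112011078 (number 54) carries AT2G48140 (EDA4, another GPI-anchored lipid transfer protein) as first and AT2G48130 (LTPG15) as second identifier and was therefore not counted as a member, and LOC112009540 (number 53) carries the identifiers of LOC111994752. This pair was singled out after the values were seen. LOC112011078 had rlog values of 12.15, 11.88, 11.38 and 12.38 in April, 10.76, 11.50 and 10.46 in June, and 10.54, 10.99, 9.86 and 11.61 in July. Within each month its lowest values were those of the trees in which LTPG15 LOC111994753 was high. LOC112009540 had rlog values of 12.62, 12.90, 12.08 and 12.87 in April, 12.46, 13.03 and 12.09 in June, and 12.06, 13.12, 11.89 and 13.11 in July, again with the lowest values of each month in those trees. In July, however, replicate 1, in which LTPG15 was at 3.82, was nearly as low (12.06) as replicate 3. The 4 trees in which LTPG15 was high thus also had reads on LOC112011078, at 9.86 to 11.38.

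In the gene table of Cork oak 2.0, LOC112011078, LOC111994753, LOC111994757 and LOC112009540 stood in succession, although their CorkOak1.0 gene numbers (54, 38260, 38259 and 53) put them in separate places, and LOC111994752 was not matched by name. Here too succession is the order of listing only, which does not show that the loci adjoin on a scaffold. Whether the separate loci of CorkOak1.0 stand for different genes or for versions of the same genes, and how reads were divided between them, was not tested. LOC112011078 itself was not called in June/April (log2FC -1.04, SE 0.40, adjusted p = 0.121), July/April (-1.20, SE 0.37, adjusted p = 0.0603) or July/June (-0.16, SE 0.40, adjusted p = 0.955).

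**Figure D4:**
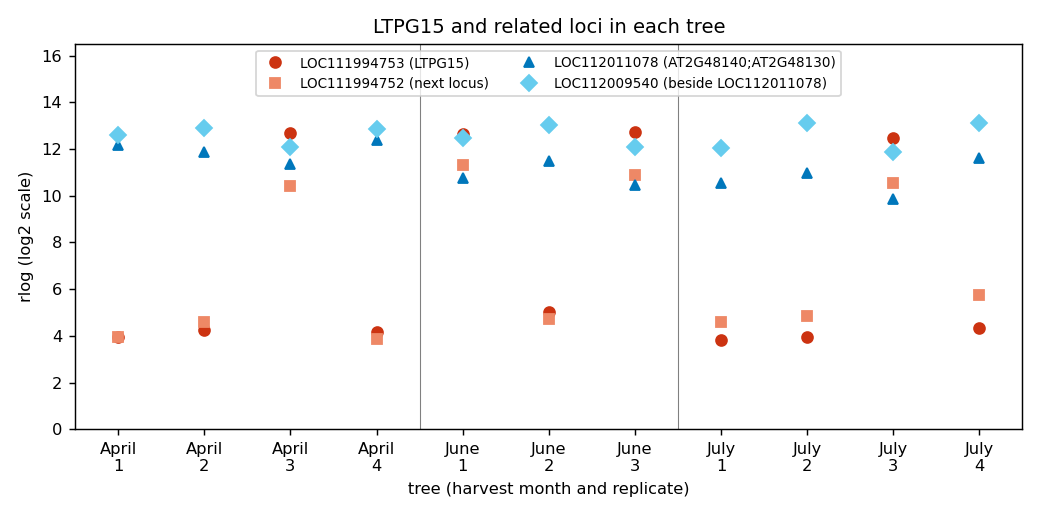
Rlog (log2 scale) in each tree of LTPG15 LOC111994753, the locus with the next gene number (LOC111994752), and the pair LOC112011078 and LOC112009540 with related identifiers, with vertical lines between the months. The first pair is high in April replicate 3, June replicates 1 and 3 and July replicate 3 only, and the second pair is at 9.86 or above in every tree.

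Counted together, none of the 8 LTPG loci was a DEG in June/April, against 1.46% of all loci tested, and 1 of the 8 had an unadjusted p under 0.05 by limma, against 28.3% of all loci. In July/April 1 of the 8 was a DEG, the AT5G13900 homolog, against 2.04% of all loci, and 2 had an unadjusted p under 0.05, against 30.0% of all loci. In July/June none was, against 0.00446% of all loci, with 2 of the 8 at an unadjusted p under 0.05 by limma, against 8.93% of all loci. Months did not overlap for 1 LTPG locus in June/April (background 26.9%), for 2 in July/April (background 17.5%) and for none in July/June (background 10.7%), or 12.5% and 25% of the 8 in the first 2 comparisons, counts of 1 and 2 loci that set the members apart from the background in neither. The median log2FC of the 8 was 0.15 for June/April, -0.16 for July/April and -0.19 for July/June, against -0.02, -0.02 and -0.00 over all loci.

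**Figure D5:**
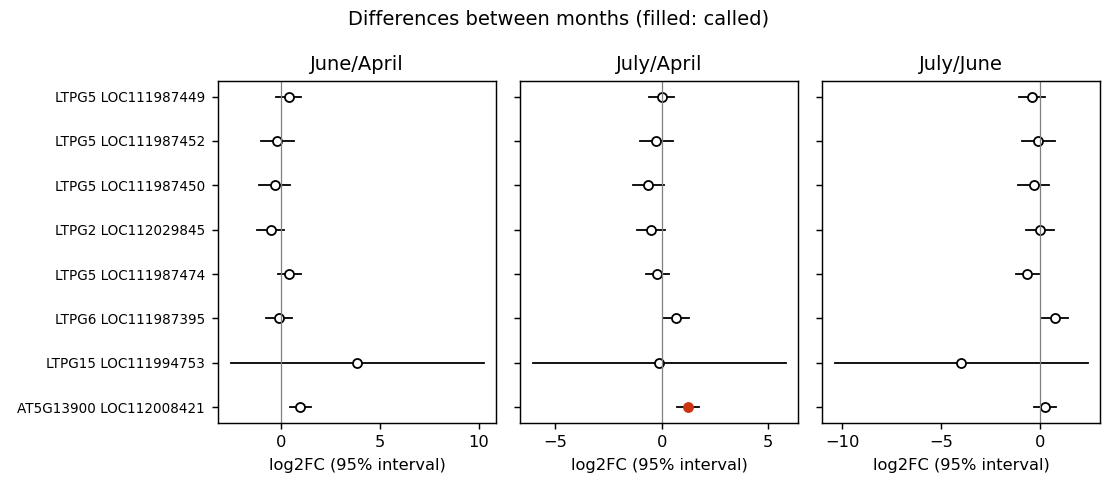
Log2FC of the 8 LTPG loci above the minimum in June/April, July/April and July/June (horizontal axes, log2, with a separate range in each panel), with 95% intervals from limma and a filled point for the only DEG. The AT5G13900 homolog in July/April (1.24) is filled, and the intervals of LTPG15 span 0 in each comparison.

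No DEG was found among the other genes of lipid export examined, which does not show equal levels in all months. Of the 3 other GPI-anchored lipid transfer protein loci tested (LTPG7, EDA4 and LTPG20), none was a DEG in any comparison (by limma, 1, 1 and 0 had an unadjusted p under 0.05 in June/April, July/April and July/June). LTPG20 LOC111987470, next to the LTPG5 copies, had rlog values of 13.82, 14.72, 13.65 and 14.12 in April, 14.23, 14.32 and 14.09 in June, and 13.40, 14.02, 13.57 and 13.74 in July. Every July tree was below every June tree (log2FC -0.53, SE 0.24, adjusted p = 0.565). These months did not overlap, in either direction, for 10.7% of all loci tested. None of the 12 soluble lipid transfer protein loci tested was a DEG (3, 6 and 1 with an unadjusted p under 0.05 by limma). Such counts, here and for the transporters and enzymes, stand against the 28.3%, 30.0% and 8.93% of all loci given above.

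Of the ABCG transporters linked to suberin or cutin export, 5 loci were tested and none was a DEG (2, 0 and 2 with an unadjusted p under 0.05 in the 3 comparisons by limma). The median log2FC of the 5 was 0.55 for June/April, 0.01 for July/April and -0.60 for July/June. Months did not overlap for 2, 0 and 3 of them, against 26.9%, 17.5% and 10.7% of all loci tested. The ABCG1 homolog LOC112015809 had a log2FC of 1.33 in June/April (SE 0.51, adjusted p = 0.122) and -1.38 in July/June (SE 0.51, adjusted p = 0.464). The ABCG2 homolog LOC111999232 had 0.55 (SE 0.23, adjusted p = 0.148) and -0.60 (SE 0.23, adjusted p = 0.474) in the same comparisons. The ABCG32 homolog LOC112006106 had 0.49 and -0.48, and the ABCG11 homolog with the highest mean, LOC112029276, had 0.01 and 0.57, while the other ABCG11 homolog tested, LOC111989383, named after its values were seen, had 1.26 and -0.95. The 16 loci for enzymes of suberin monomers and polyester had medians of 0.52, 0.04 and -0.58 and no DEG (6, 4 and 4 with an unadjusted p under 0.05 by limma). An adjusted p of at most 0.05 by limma was reached by 2, 1 and 0 of them, and by 2199, 2701 and 1 of all 22426 loci. In June/April 14 of the 16 had a higher mean, and in July/June 15 had a lower mean. Months did not overlap for 3, 1 and 9 of the 16, against 26.9%, 17.5% and 10.7% of all loci tested. The 8 tested LTPG members were divided in their highest month. LOC111987449, LOC111987474 and LTPG15 LOC111994753 had their highest month mean in June (not LOC111987449 after quantile normalization). Their log2FC were 0.40 (SE 0.29), 0.43 (SE 0.26) and 3.85 (SE 2.89) in June/April. In July/June they were -0.40, -0.63 and -3.97, with the same SEs, and none was called. LOC111987452, LOC111987450 and LTPG2 had their highest month mean in April. LTPG6 and the AT5G13900 homolog had theirs in July.

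Loci whose rlog over the 11 trees was most like that of a member were ranked by Pearson correlation among 22425 other loci, as a description over trees that share library and normalization. For LTPG5 LOC111987449 they were LOC112003320 (AT1G02305, a cathepsin B-like protease, r = 0.97), LOC111984614 (AT5G17190, r = 0.96) and LOC111983259 (AT1G01230, an ORM family protein, r = 0.96). None of these 3 was called in any comparison. For LTPG15 the ranking rests on its 2 separate ranges of values and gives loci that were higher in the same 4 trees. LOC111994752 came first (r = 0.99), LOC111989508 (AT2G36900, a membrin of the Golgi) second with values between only 3.27 and 5.10 (r = 0.97), and LOC112017283 (AT1G06290, an acyl-CoA oxidase) next with values between 8.64 and 9.25 (r = 0.89). LOC112017283 had no 2 separate ranges, since June replicate 1, high in LTPG15, was at 8.93 and April replicate 2, low in LTPG15, at 8.88.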

How the data were processed

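RNA-seq libraries of innercork from 11 trees (4 April, 3 June, 4 July) were analysed from the deposited table. The authors mapped the reads to CorkOak1.0 with STAR (2.5.3a per the submitters' processing notes) and deposited log2 values made with the rlog of DESeq2, which divides counts by size factors and shrinks low values. Counts and depth cannot be recovered, so limma 3.58.1 in R 4.3.3 took the place of a count test. With DESeq2 on counts and the same thresholds, the authors reported more DEGs in each comparison. Here 327, 457 and 1 loci were called in June/April, July/April and July/June. A locus not called here may therefore still differ between months. A model with month as factor was fitted over all 11 trees, with moderated variances and a trend on the mean (residual df 8), and p-values were adjusted by Benjamini-Hochberg over 22426 loci. The test was run on simulated data with independent noise for each locus. These lack the differences between whole libraries seen here, so they do not show its error rate in the real data. Figures were drawn with matplotlib in Python.

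All loci whose first identifier was a member were reported, those above the minimum (mean rlog of log2 of 10) with every value. A locus was on in some trees only where its range reached 4. The 3 most alike loci were ranked for the highest member and for the member on in some trees only. Of the other lists, the loci called and the highest locus of each exporter were named. Some loci were named outside this rule, among them LTPG20 LOC111987470, the ABCG11 homolog LOC111989383 and the phloem loci. Members and lists were chosen with earlier results of these data known.

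Locus names matched the RefSeq gene table of Cork oak 2.0 for 8 of 11 members, all protein-coding, and this table was used for names, biotypes and succession only. Alternatives covered the minimum, a pseudocount of 1, normalization, variances, tree weights, thresholds, fits of 2 months, a replicate block and leaving out trees. Supplementary values and RT-qPCR were not used here.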

Additional observations from a re-analysis of the deposited data

Results flagged for a closer look

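LTPG15 LOC111994753 had a tree far from the others in both months with 4 trees. In April replicate 3 its rlog was 12.69, against 3.95 to 4.25 in the other April trees, and the gap took 0.965 of the whole April range. In July replicate 3 it was 12.49, against 3.82 to 4.33, and the gap took 0.942 of the range. Both ratios exceed the 95% critical value of Dixon's test for 4 values. The test was applied to 16 groups, the 8 tested LTPG loci in April and in July, and chance alone marks about 1 in 20 such groups. June, with 3 trees, was not examined in this way.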

How the results depend on the processing

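The number of LTPG loci called in July/April was 1, and it was 0 with no minimum, with a minimum of log2 of 100 (under which the AT5G13900 homolog is not tested), in fits of only the 2 months, with the replicate block and, in an alternative chosen after seeing the data, without both April replicate 2 and July replicate 4. With each tree left out in turn it ranged from 0 to 1. The count in June/April was 0, and it was 1 with arrayWeights and 1 at an adjusted p of at most 0.05 with no minimum on log2FC, and in July/June it was 0 under all alternatives tried. Trees with the same replicate number shared only the number (correlation of their deviations -0.0772 to 0.211), and the replicate block gave the AT5G13900 homolog LOC112008421 an adjusted p of 0.0130 in July/April, with 55 June/April and 212 July/April DEGs over all loci in place of 327 and 457. Without both trees of lowest weight these were 1188 and 1331, and with arrayWeights 1306 and 1272. Fits of only the 2 months gave 129 and 231, and leaving out each tree gave from 24 (June replicate 1 left out) to 934 (April replicate 2) in the first comparison and from 195 (April replicate 4) to 973 (April replicate 2) in the second, so the background shares move with single trees. The adjusted p of LOC112008421 in July/April ranged from 0.00313 to 0.0297 over 21 alternatives, of which 8 kept the call. Other sign changes concerned differences that were never called. Quantile normalization gave LOC111987449 a log2FC of -0.022 for June/April and -0.17 for July/April, and LOC111987452 a value of 0.0039 for July/June. Median centring gave LTPG2 LOC112029845 -0.018 in July/June. With arrayWeights LOC111987452 was at 0.029 in June/April, LTPG15 LOC111994753 at 0.88 in July/April and LTPG2 at -0.13 in July/June, and with the replicate block LTPG2 was at -0.15. Without both trees of lowest weight LOC111987452 was at 0.16 in June/April and LTPG2 at -0.11 in July/June. Leaving out each tree gave ranges of -0.16 to 0.21 for LOC111987449 in July/April, -0.41 to 0.16 for LOC111987452 in June/April, -0.48 to 0.10 in July/April and -0.19 to 0.073 in July/June, -0.42 to 0.21 for LTPG6 in June/April, -2.23 to 2.02 for LTPG15 in July/April and -0.11 to 0.15 for LTPG2 in July/June. The share of LOC111987449 stayed between 89.0 and 91.1%. The causes of these changes were not tested. The shrinkage of rlog and the unknown depth limit what can be said of LOC112008421 and of the low trees of LTPG15.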
